A study of Homo sapiens with 4 samples.

Results

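The genes for translation initiation and elongation factors were followed after EC359 in ES2, an ovarian cancer line of human origin. They were chosen by symbol: all rows starting with EIF or EEF, without the kinases EIF2AK1, EIF2AK2, EIF2AK3, EIF2AK4 and EEF2K and without symbols that had 10 or fewer counts in a library. Of 23228 gene symbols, 71 carried the prefix, 5 of these were the kinases, 8 had too few counts, and 58 were members. All 58 had enough counts to be tested.

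EC359 inhibits the receptor for leukemia inhibitory factor (LIFR), and the study asked how gene expression changes when this receptor is blocked. ES2 cells in RPMI medium with serum received EC359 at 10 nM, or vehicle alone (0.1% DMSO), and RNA was taken at 12 h. Polyadenylated RNA was sequenced from 2 libraries per treatment, which the study describes as biologically independent samples of this 1 cell line. As far as they do not come from separate cultures, the p-values measure only the spread between these libraries.

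Initiation factors bring the small ribosomal subunit, the initiator tRNA and the capped mRNA together: eIF2 carries the initiator tRNA, eIF4F binds the cap, eIF3 holds the small subunit, and eIF1, eIF1A and eIF5 help to choose the start codon. Elongation factors then deliver each charged tRNA (eEF1A, recharged with GTP by the eEF1B subunits) and move the ribosome along the message (eEF2). Many mRNAs for elongation factors and ribosomal proteins begin with a terminal oligopyrimidine tract, a C and a run of pyrimidines at the cap, through which their translation follows mTOR, and tumour cells often depend on this control.

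Because this tract lies at the very first bases of the message, the start regions of 9 members are shown here, picked as 7 of the 12 with the run described below and 2 without it, with 10 bases before and 20 bases from the RefSeq start on. They come from RefSeq (GRCh38.p14) and were placed by exact match in GRCh37, the build of the counts. Capitals mark a C at the start base followed by at least 4 bases that are each C or T, read on the strand of the gene, and the last 2 sequences have no such run.
EEF1A1: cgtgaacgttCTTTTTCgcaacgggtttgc
EEF1B2: ctcttcgggtCCTTTTTCCTCTCTTCagcg
EEF2: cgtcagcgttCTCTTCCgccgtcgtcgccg
EIF3D: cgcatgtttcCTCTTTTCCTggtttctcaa
EIF3F: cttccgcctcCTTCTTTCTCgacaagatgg
EIF3K: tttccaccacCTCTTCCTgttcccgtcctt
EIF4B: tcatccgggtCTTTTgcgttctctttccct
EEF1G: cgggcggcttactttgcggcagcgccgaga
EIF3I: ttccggtcttactcacgttgcggccttcct

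These windows lie at chr6:74230736-74230765 (minus strand) for EEF1A1, chr2:207024609-207024638 (plus) for EEF1B2, chr19:3985442-3985471 (minus) for EEF2, chr22:36925194-36925223 (minus) for EIF3D and chr11:8008874-8008903 (plus) for EIF3F. Those of EIF3K, EIF4B, EEF1G and EIF3I lie at chr19:39109818-39109847 (plus), chr12:53400230-53400259 (plus), chr11:62341344-62341373 (minus) and chr1:32687998-32688027 (plus). EEF1B2 has a further RefSeq start, at which no such run was found.

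Counts per gene as deposited were scaled with TMM factors, and the quasi-likelihood test of edgeR compared EC359 with vehicle, with p adjusted by Benjamini-Hochberg over all 12706 tested genes and a call at an adjusted p under 0.01. Library totals ranged from 25572494 to 31707553 gene counts, and the biological coefficient of variation was 3.5%. Normalized counts are counts at the mean library size, so they compare libraries for 1 gene and not genes with each other. Of the markers checked, KRT7, KRT8, KRT18, VIM, FN1 and CDH2 were at 556 counts or more in every library, EPCAM and CDH1 at 2 or fewer, the ovarian carcinoma markers MUC16 and FOLR1 at 0, PAX8 at 24 to 41, WT1 at 76 to 119 and ARID1A at 2481 to 3258, while the leukocyte markers PTPRC, CD3E and CD14 had 2 or fewer. In bulk RNA, fewer cells of a kind and less RNA per cell cannot be told apart.

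No member was called at an adjusted p under 0.01 in the edgeR test: 0 of 58 were lower, against 0.795% of all tested genes, and 0 were higher, against 0.299%. At an adjusted p under 0.05, 5 members were lower (EIF3D, EEF1G, EEF1B2, EIF3I and EIF5A), which is 8.62% against 2.64% of all tested genes, and 1 was higher (EIF5), which is 1.72% against 1.68%. At an unadjusted p under 0.05, 15 members were lower, or 25.9% against 11.0% of all genes, and 2 were higher (EIF5 and EEF1D), or 3.45% against 10.7%. DESeq2 called 2 members at an adjusted p under 0.01, EEF1G and EIF3D, both lower. When EC359 replicate 1 or EC359 replicate 2 was left out, no member had an adjusted p under 0.05. Without vehicle replicate 1 or vehicle replicate 2, more members passed that limit, and so did more of all tested genes. Over all genes, 549 had an adjusted p under 0.05, and 0 and 2 had one without EC359 replicate 1 and 2. The 6 members kept their sign in all 11 alternative fits, and their adjusted p was under 0.05 in 9 of these for EIF3D, EEF1G and EEF1B2, in 8 for EIF5, in 7 for EIF5A and in 6 for EIF3I.

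The differences were small. The log2 fold changes of the members, EC359 against vehicle, ran from -0.27 to 0.17, their median absolute size was 0.064, and 37 of 58 were under 0.1 in size. With a median standard error of 0.042, 41 of the 58 intervals (95%) included 0. The mean was lower with EC359 in 36 members and higher in 22, and the median log2 fold change was -0.040, against 0.0029 over all tested genes. Of the members, the middle range from the lower to the upper quartile was -0.11 to 0.026, and that of all tested genes was -0.084 to 0.10. Both EC359 libraries lay below both vehicle libraries in 27 members (46.6%, against 25.4% of all tested genes) and above them in 14 (24.1%, against 26.1%), and the groups overlapped in 17. The smallest absolute log2 fold change of any gene called at 0.01 was 0.17, and only EIF5AL1, EIF3IP1 and EEF1B2 reached 0.2 among the members.

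**Figure D1:**
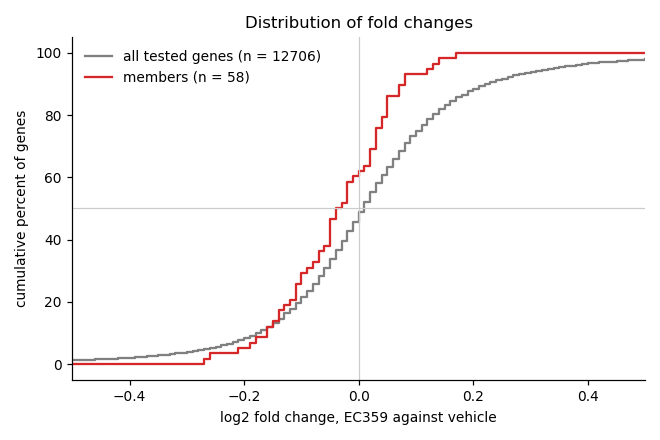
Cumulative percent of genes (vertical axis) up to a given log2 fold change, EC359 against vehicle (horizontal axis, shown from -0.5 to 0.5 in steps of 0.01), for the 58 members and for all 12706 tested genes. At a fold change of 0 the line of the members is at 62.07% and that of all genes at 49.03%, and at 0.1 they are at 93.1% and 75.0%.

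**Figure D2:**
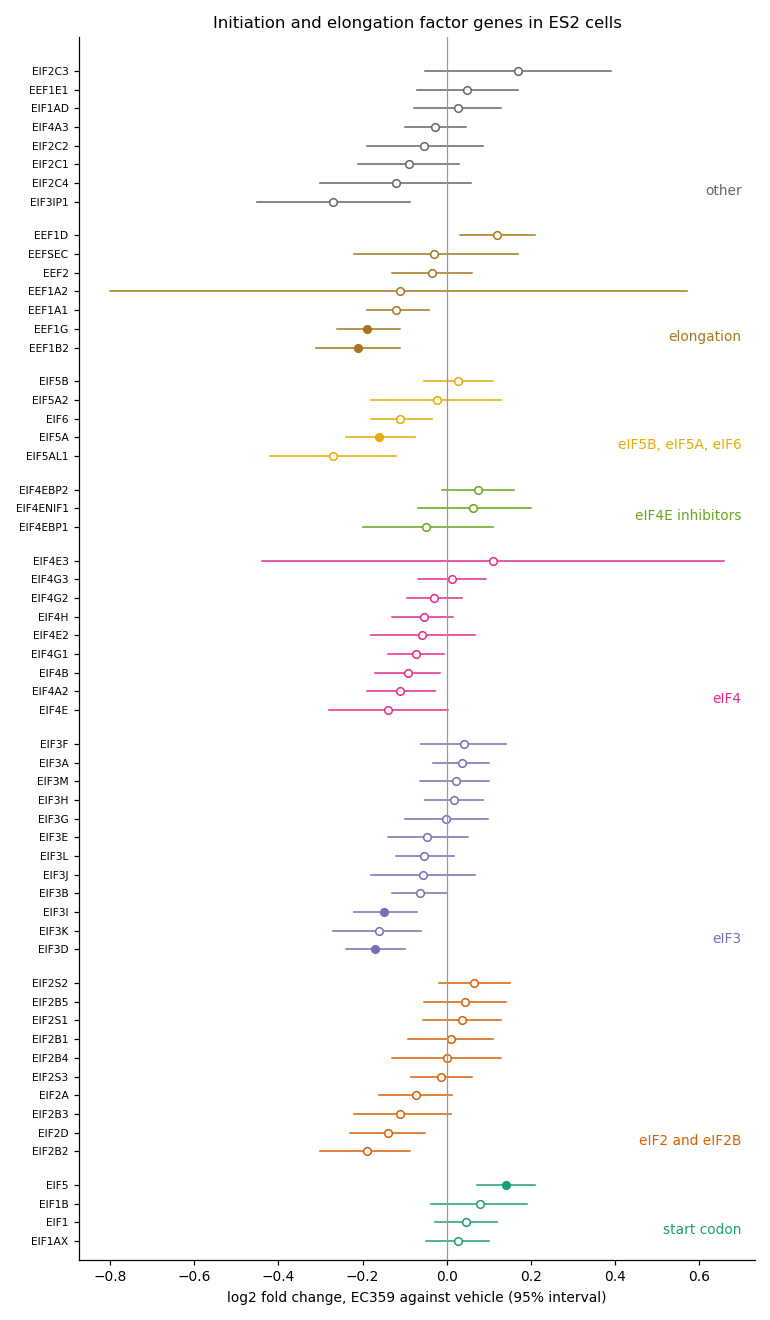
Log2 fold change, EC359 against vehicle, of each of the 58 members (points) with its 95% interval (lines) from the edgeR model on 2 libraries per treatment, grouped by role. Filled points are the 6 members with an adjusted p under 0.05, which are EIF3D, EEF1G, EEF1B2, EIF3I and EIF5A below 0 and EIF5 above 0, and the widest intervals are those of EEF1A2 and EIF4E3, the members with the fewest counts.

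Start codon selection was the role in which all members had higher means with EC359. Its 4 members are EIF1, EIF1B, EIF1AX and EIF5, with a median log2 fold change of 0.062, and in all 4 the EC359 libraries lay above both vehicle libraries, as in 26.1% of all tested genes. EIF5 (chr14:103799881-103811362), whose product makes eIF2 hydrolyse its GTP once the start codon is found, had 12239 and 12043 normalized counts in the vehicle libraries and 13473 and 13260 in the EC359 libraries. Both EC359 libraries were high and the groups did not overlap. The EC359 to vehicle ratio was 1.10, with a log2 fold change of 0.14 ± 0.031 (SE, n = 2 per treatment, adjusted p = 0.0327 in the edgeR test). EIF1, the gatekeeper against poor start codons, had 11630 and 12172 normalized counts with vehicle and 12313 and 12270 with EC359, a log2 fold change of 0.047 that did not pass (adjusted p = 0.457). Its close relative EIF1B stood at 0.078 (adjusted p = 0.423), and EIF1AX, which helps the scanning ribosome, at 0.026.

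Factors that bring the initiator tRNA were divided between both directions. This role has 10 members, the eIF2 subunits (EIF2S1, EIF2S2, EIF2S3), the eIF2B subunits that recharge eIF2 with GTP (EIF2B1 to EIF2B5), and EIF2A and EIF2D, which can place an initiator tRNA without eIF2. Means were lower in 5 and higher in 5, the median log2 fold change was -0.0061, and none had an adjusted p under 0.05. EIF2B2, the beta subunit of eIF2B, had 2069 and 1980 normalized counts in the vehicle libraries and 1772 and 1767 in the EC359 libraries. Here the EC359 libraries were low and apart from the vehicle libraries, but the log2 fold change of -0.19 ± 0.049 (SE) did not pass (adjusted p = 0.0524). EIF2D had 3033 and 3081 with vehicle and 2793 and 2748 with EC359, again without overlap, at -0.14 (adjusted p = 0.0756). EIF2B3, the gamma subunit, was at -0.11 (adjusted p = 0.274). The other eIF2 and eIF2B subunits had log2 fold changes between -0.013 and 0.065, EIF2A was at -0.073, and EIF2B4 was closest to 0 (0.00061 ± 0.057, SE).

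Within the eIF3 scaffold, 2 of the 12 members had an adjusted p under 0.05 and both were lower (16.7%, against 2.64% of all tested genes). Means were lower in 8 and higher in 4, and the median log2 fold change was -0.050. EIF3D (chr22:36906902-36925231), the subunit that can itself bind the cap of some messages, had 16934 and 16582 normalized counts in the vehicle libraries and 14901 and 14910 in the EC359 libraries. The EC359 values lay close together and well under both vehicle values. Its ratio was 0.889, its log2 fold change -0.17 ± 0.030 (SE) and its adjusted p 0.0137 in the edgeR test, and the start shown above opens with a tract of 10 pyrimidines.

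EIF3I (chr1:32686678-32710998), a subunit built of WD repeats, had 9812 and 9534 normalized counts with vehicle and 8889 and 8604 with EC359. Both EC359 libraries were low, at a ratio of 0.904, with a log2 fold change of -0.15 ± 0.034 (SE) and an adjusted p of 0.0411 in the edgeR test. EIF3K, a small peripheral subunit, had 3146 and 3074 with vehicle and 2877 and 2672 with EC359, and its -0.16 ± 0.047 (SE) did not pass (adjusted p = 0.0756). For the subunits EIF3E, EIF3F and EIF3H, the log2 fold changes were -0.046, 0.042 and 0.017, with adjusted p of 0.583, 0.648 and 0.801 in the edgeR test. Vehicle replicate 1 decided the sign of EIF3E, whose log2 fold change was 0.021 without that library. Of the other eIF3 subunits, EIF3B was at -0.064, EIF3L at -0.054, EIF3J at -0.057, EIF3A at 0.036, EIF3M at 0.021 and EIF3G at -0.00085. EIF3C is not among the 12, since it was listed at 0 in every library.

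**Figure D3:**
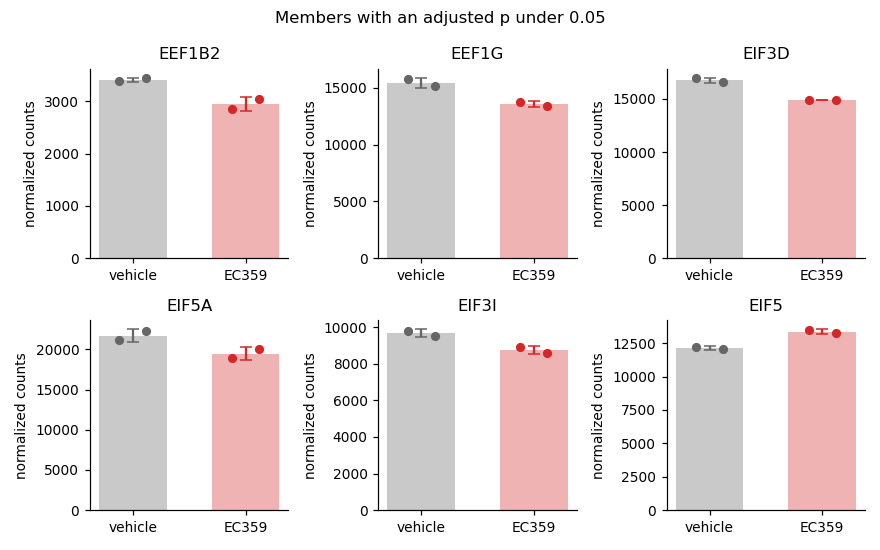
Normalized counts (vertical axes, starting at 0) of the 6 members with an adjusted p under 0.05, with 1 point per library, bars for the mean of the 2 libraries of a treatment and error bars for their SD. In EEF1B2, EEF1G, EIF3D, EIF5A and EIF3I both EC359 libraries lie below both vehicle libraries, and in EIF5 both lie above.

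Cap binding and scanning factors had mostly lower means, and none had an adjusted p under 0.05. In this role, 7 of 9 means were lower, the median log2 fold change was -0.058, and both EC359 libraries were below both vehicle libraries in 6 members (66.7%, against 25.4% of all tested genes) and above them in 0 (against 26.1%). EIF4A2, a helicase that unwinds the leader of the message, had 11885 and 11276 normalized counts with vehicle and 10898 and 10599 with EC359, at -0.11 ± 0.036 (SE, adjusted p = 0.114). EIF4B, which stimulates that helicase, had 6394 and 6265 with vehicle and 6035 and 5832 with EC359, at -0.093 ± 0.035 (SE, adjusted p = 0.162). EIF4G1, the scaffold of eIF4F, had 35847 and 37273 with vehicle and 34870 and 34585 with EC359, at -0.074 ± 0.030 (SE, adjusted p = 0.189). In these 3 genes the EC359 libraries were the low ones and the groups did not overlap, and the unadjusted p was 0.0128, 0.0246 and 0.033 in the edgeR test.

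EIF4E, the cap-binding protein, had 798 and 809 normalized counts in the vehicle libraries and 730 and 729 in the EC359 libraries. Its groups were apart, but its interval from -0.28 to 0.0024 included 0 (adjusted p = 0.238). EIF4E2, a cap-binding relative that represses messages, was at -0.058, and EIF4G2, a relative of EIF4G1 that lacks the site for EIF4E, was at -0.029. EIF4H, a cofactor of the helicase like EIF4B, was at -0.055. EIF4G3 was at 0.012, with a sign that turned without vehicle replicate 1 (-0.0091) or without EC359 replicate 1 (-0.0068). EIF4E3 was low, with 37, 62, 67 and 64 raw counts in vehicle 1, vehicle 2, EC359 1 and EC359 2. Its interval ran from -0.44 to 0.66.

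Inhibitors of EIF4E showed no difference that passed. EIF4EBP2, which holds EIF4E back until mTOR phosphorylates it, had 5781 and 5506 normalized counts with vehicle and 6051 and 5836 with EC359, and EIF4ENIF1, which carries EIF4E into the nucleus and into P-bodies, had 989 and 957 against 1013 and 1021. Both were higher without overlap, as were 26.1% of all tested genes, at log2 fold changes of 0.075 and 0.063 (adjusted p = 0.289 and 0.583). EIF4EBP1 had 2746 and 3102 with vehicle and 2652 and 3010 with EC359, so the groups overlapped, and its log2 fold change of -0.048 turned to 0.037 without vehicle replicate 2 and to 0.041 without EC359 replicate 1.

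Among the factors for subunit joining and eIF5A, 4 of 5 means were lower, with a median log2 fold change of -0.11. EIF5A (chr17:7210318-7215782), whose hypusine-bearing product helps ribosomes past difficult peptide bonds, had 21173 and 22241 normalized counts with vehicle and 18859 and 20016 with EC359. Both EC359 values were low, and EC359 replicate 2 was the nearer to the vehicle values. The ratio was 0.895, the log2 fold change -0.16 ± 0.038 (SE) and the adjusted p 0.0419 in the edgeR test. EIF5AL1, an EIF5A-like copy of 1 exon on chromosome 10, had 1034 and 1143 with vehicle and 892 and 918 with EC359, at -0.27 ± 0.067 (SE, adjusted p = 0.0534). Of its 50-base windows, 59.1% occurred at a further place in the genome.

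EIF6, which keeps the large subunit from joining too early, had 9931 and 10313 normalized counts with vehicle and 9304 and 9453 with EC359. Its EC359 libraries were low and apart, at -0.11 ± 0.033 (SE, adjusted p = 0.0898). EIF5B, the GTPase that joins the subunits, was at 0.026, and 14.8% of its exonic bases overlap REV1 on the other strand. EIF5A2, the second eIF5A gene, was at -0.024 and turned to 0.075 without vehicle replicate 1.

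Among the elongation factors, the means of the eEF1B subunits EEF1G and EEF1B2 were lower with EC359, at an adjusted p under 0.05 but not under 0.01, and the mean of EEF1D of the same complex was higher. Of 7 members, 6 had lower means, and the median log2 fold change was -0.11. At an adjusted p under 0.05, 2 were lower (28.6%, against 2.64% of all tested genes) and 0 higher (against 1.68%). EEF1G (chr11:62327068-62341558), the scaffold subunit of eEF1B, had 15775 and 15145 normalized counts with vehicle and 13760 and 13377 with EC359. Both EC359 libraries were low, the ratio was 0.878 and the log2 fold change was -0.19 ± 0.033 (SE, adjusted p = 0.0137). EEF1B2 (chr2:207024309-207027652), the exchange factor that returns GTP to eEF1A, had 3391 and 3445 with vehicle and 2862 and 3044 with EC359. Here too both EC359 libraries were low, at a ratio of 0.864 and a log2 fold change of -0.21 ± 0.044 (SE, adjusted p = 0.0253).

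EEF1D, the other exchange subunit of the complex, had 7388 and 7998 normalized counts with vehicle and 8270 and 8479 with EC359. Its EC359 libraries were the high ones, at 0.12 ± 0.041 (SE), and it did not pass (adjusted p = 0.117). EEF1A1, which delivers charged tRNAs, had 23252 and 23000 with vehicle and 21886 and 20767 with EC359, low without overlap, at -0.12 ± 0.033 (SE, adjusted p = 0.075). EEF1A2, the form best known from muscle and neurons, was the member nearest the count limit, with 19, 19, 23 and 20 raw counts in vehicle 1, vehicle 2, EC359 1 and EC359 2.

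EEF2, the translocase, had the most counts of all members, with 90077 and 99508 normalized counts with vehicle and 90802 and 94378 with EC359. Both EC359 values lay between the vehicle values. The log2 fold change was -0.034 ± 0.043 (SE, adjusted p = 0.693), and it was 0.034 without vehicle replicate 2. EEFSEC, which delivers selenocysteine tRNA, was at -0.029 ± 0.088 (SE).

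The symbol rule also took in 8 genes with other work. EIF2C1, EIF2C2, EIF2C3 and EIF2C4 are older symbols of the Argonaute genes of small RNA silencing, and their log2 fold changes were -0.089, -0.054, 0.17 and -0.12. The groups were apart in all 4, as in the 25.4% of all tested genes that lay below and the 26.1% that lay above. EIF2C3 had 280 and 285 normalized counts with vehicle and 301 and 334 with EC359, and its interval from -0.051 to 0.39 included 0. EIF3IP1, a processed pseudogene of EIF3I, had 427 and 437 with vehicle and 367 and 349 with EC359, at -0.27 ± 0.083 (SE, adjusted p = 0.0933). EIF4A3, the helicase of the exon junction complex, EEF1E1, a part of the tRNA synthetase complex, and EIF1AD were at -0.028, 0.049 and 0.026.

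Paralogs were compared as log2 ratios of their counts within a library, of which only the difference between treatments is read, since the genes differ in length. EIF4G1 to EIF4G3 gave 2.88 and 2.89 in the vehicle libraries and 2.79 and 2.81 in the EC359 libraries, a difference of -0.086 with no overlap. For EIF5A to EIF5A2 the values were 4.12 and 4.38 against 4.06 and 4.16, a difference of -0.14 with overlap, which was -0.27 without vehicle replicate 1 and -0.0076 without vehicle replicate 2. EIF4E to EIF4E2 differed by -0.082 with no overlap, and by -0.13 and -0.037 without vehicle replicate 1 and 2. EIF4EBP1 to EIF4EBP2 differed by -0.12, and by -0.25 and 0.00086 without vehicle replicate 1 and 2 and by -0.0048 and -0.24 without EC359 replicate 1 and 2. The differences of EIF1 to EIF1B (-0.031) and EEF1A1 to EEF1A2 (-0.00092) turned sign with the library left out, running from -0.08 to 0.018 and from -0.025 to 0.023. With 2 libraries per treatment a two-sided exact permutation test of 1 such ratio cannot give a p under 0.33, so none is given. The members together took 1.84% and 1.86% of gene counts with vehicle and 1.83% and 1.83% with EC359.

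Messages with the start tract shown above were read next. A RefSeq start was used for 47 members, and 12 of them (25.5%) had a C at the start base followed by at least 4 pyrimidines at one of their starts. Counted the same way per gene, 747 of 9798 tested genes with a RefSeq start (7.62%) had one, and counted per window, 1429 of 35116 RefSeq start windows (4.07%) did. The 9798 are part of the 12706 tested genes, so the share does not cover the whole table. The 12 were EEF1A1, EEF1B2, EEF2, EIF2A, EIF2D, EIF2S3, EIF3D, EIF3F, EIF3K, EIF3M, EIF4A2 and EIF4B. Their median log2 fold change was -0.10, with 10 lower means, and that of the 35 other members with a start was -0.028, with 19 lower means. Neither group holds EEF1D, EIF3E and EIF3H, for which no start was used, though the list below counts them among tract messages. The log2 fold changes of these were 0.12, -0.046 and 0.017. Over the 9798 tested genes the medians were -0.021 with and 0.005 without the run. The C was then allowed within 3 bases of the start, but away from the start base only where the base before it was not C or T. This gave 17 members (36.2%, against 17.1% of the tested genes with a start and 10.5% of all windows). Medians of the members were -0.073 with and -0.012 without the run, against -0.005 and 0.0052 over those tested genes. Of the 6 members with an adjusted p under 0.05, EIF3D and EEF1B2 had the run at the start base, and EEF1G, EIF3I, EIF5A and EIF5 did not. Lower at that limit were 2 of the 12 members with the run and 3 of the 35 without it. Over the tested genes with a start, 32 of 747 with the run and 254 of 9051 without it were lower. A match is a description of these bases and does not show which start ES2 cells use.

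A list of 9 members counted from general knowledge among messages with such a tract (EEF1A1, EEF1B2, EEF1D, EEF1G, EEF2, EIF3E, EIF3F, EIF3H and EIF4B) had 6 lower and 3 higher means and a median log2 fold change of -0.046. The 49 other members had 30 lower and 19 higher means and a median of -0.029. At an adjusted p under 0.05, 2 of the 9 (22.2%) and 3 of the 49 (6.12%) were lower, against 2.64% of all tested genes, and 0 of the 9 and 1 of the 49 (2.04%) were higher, against 1.68%.

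**Figure D4:**
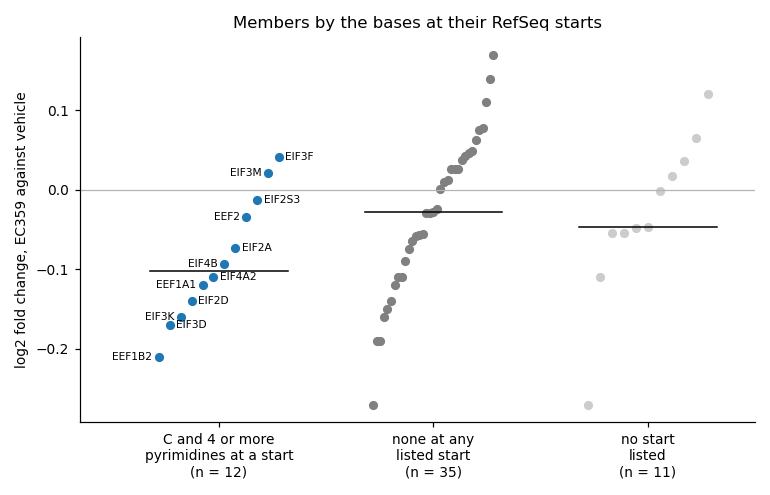
Log2 fold change, EC359 against vehicle (vertical axis), of the 58 members, divided into 12 with a C and at least 4 pyrimidines at a RefSeq start (named points), 35 with none at any start used, and 11 for which no start was used. Black lines are medians, at -0.10 for the first group and -0.028 for the second, and both groups spread on both sides of 0. EEF1D, EIF3E and EIF3H, listed in the text among tract messages, are in the group for which no start was used.

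Members with longer transcripts tended to have higher log2 fold changes. Across the 58 members, which share the 4 libraries and are not independent replicates, the fold change and log2 transcript length had a Pearson r of 0.398 and a Spearman rho of 0.374, and over 12166 tested genes these were 0.0978 and 0.128. For GC content r was -0.23 and rho -0.31 over the members, and 0.00102 and -0.0455 over all tested genes. With each library's trends against length and GC content removed, 10 members were called lower and 1 higher at an adjusted p under 0.01, among them EIF3D (0.000406), EEF1B2 (0.000581), EIF5A (8.88e-05), EEF1G (0.00137) and EIF5 (0.0032), while EIF3I was at 0.0122. The same setting called 365 genes higher and 645 lower over the whole table, against 38 and 101 without it.

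Sequence shared between genes limits some of the counts, since reads with several alignments were not counted. At 9 members, over 40% of the 50-base windows of the transcript occurred at a further place in the genome, and 22 members had no such window. The 9 were EEF1G (71.1%), EEF1B2 (68.9%), EIF4B (61.1%), EIF4H (59.7%), EIF5AL1 (59.1%), EIF4E (53.5%), EIF1AX (51%), EEF1A1 (47.3%) and EIF5A (41.6%). The share was 0% for EIF3D and EEF2, 2.05% for EIF5 and 10.8% for EIF3I. The part of this sharing in the fold changes was not tested. EIF2B1 and DDX55 share 22.4% of the exonic bases of EIF2B1 on opposite strands, and EIF3G and P2RY11 share 10.5% of those of EIF3G. Since the strand setting of the counting is not given, it is not known how reads on these bases were counted. Some reads were set aside as ambiguous, and whether those of these overlaps are among them cannot be told.

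Of the 8 symbols under the count limit, EIF4A1, EIF3C, EIF3CL, EIF4E1B and EEF1E1-MUTED were listed at 0 in all 4 libraries. EIF4A1 encodes the main helicase of eIF4F, on which cells in general rely, so this 0 is not read as its level. Of its exonic bases, 83.4% overlap the readthrough gene SENP3-EIF4A1 on the same strand. For EIF3C and its near-identical copy EIF3CL, 66.2% and 66.1% of the windows occurred elsewhere. Also under the limit were EIF4EBP3, with 4, 6, 8 and 5 raw counts in vehicle 1, vehicle 2, EC359 1 and EC359 2, and EEF1DP3, with 1, 2, 1 and 5.

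Genes that regulate these factors showed no call at an adjusted p under 0.01 either. Of 30 regulators (the eIF2 and eEF2 kinases, phosphatase subunits, the mTOR pathway and its outputs), 15 had lower and 15 higher means, with a median log2 fold change of -0.0018. At an adjusted p under 0.05, 1 regulator was lower (3.33%, against 2.64% of all tested genes) and 0 were higher (against 1.68%). This regulator was ATF4, the transcription factor whose message is translated when eIF2 is phosphorylated. It had 4208 and 4409 normalized counts with vehicle and 3740 and 3726 with EC359, low and apart, at -0.21 ± 0.039 (SE, adjusted p = 0.0177). PAIP2, an inhibitor of the poly(A)-binding protein, was at -0.19 (adjusted p = 0.063), and LARP1, which binds the oligopyrimidine tract, was at -0.11 (adjusted p = 0.0676).

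At an unadjusted p under 0.05, 3 regulators were lower (10.0%, against 11.0% of all tested genes) and 4 higher (13.3%, against 10.7%), shares near those of the whole table. The 4, named after their values were seen, were DOHH, the second enzyme of hypusine formation on eIF5A (0.38, adjusted p = 0.0756), SESN2 (0.22, adjusted p = 0.108), EIF2AK2 (0.15, adjusted p = 0.189) and PPP1R15A, which brings a phosphatase to eIF2 (0.13, adjusted p = 0.101). For comparison, MTOR was at 0.00017 ± 0.041 (SE) and MYC at 0.0063 ± 0.037 (SE), also named after their values were seen.

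Among 24 partners of the factors (release and recycling factors, poly(A)-binding proteins, mitochondrial factors and others), 17 means were lower and 7 higher, and the median log2 fold change was -0.030. GNB2L1, the older symbol of the ribosomal scaffold RACK1, had 52507 and 53958 normalized counts with vehicle and 48992 and 48513 with EC359. Both EC359 libraries were low, at -0.13 ± 0.028 (SE, adjusted p = 0.0336), and no other partner had an adjusted p under 0.05. The share of partners lower at that limit was thus 4.17%, against 2.64% of all tested genes. The mitochondrial elongation factor GFM1 was at 0.11 (adjusted p = 0.0977) and the mitochondrial initiation factor MTIF2 at 0.13 (adjusted p = 0.215). Without EC359 replicate 1 or 2, the adjusted p was 0.379 and 0.33 for ATF4 and 0.407 and 0.429 for GNB2L1.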

How the data were processed

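RNA of 4 ES2 libraries, 2 with EC359 and 2 with vehicle, was sequenced by the authors from a stranded polyadenylated RNA kit as single-end reads of 50 bases. Per the submitters' processing notes and the study's methods, CASAVA 1.8.2, TopHat2 2.0.8b and HTSeq were used with hg19 and RefSeq genes. The authors deposited a table of raw counts by gene symbol for each library, and the strand setting of the counting is not given in the sources used here. Each library was checked to hold the same symbols, and its 5 summary entries, which name no gene, were kept out of totals and tests. Reads on no gene were 10.9% to 12% and ambiguous reads 0.852% to 0.879% of those with 1 alignment.

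Low genes were removed by filterByExpr (edgeR 4.0.16, minimum count 10, minimum total 15, R 4.3.3), and the others were scaled with TMM factors and tested by quasi-likelihood, without a replicate block. DESeq2 1.42.0, other scalings, filters and thresholds, removal of length and GC trends, a replicate block and leaving out each library were the alternatives. Replicates differed by more than sampling noise (chi-square per degree of freedom 3.78 between vehicle and 2.69 between EC359 libraries), and each counted as 1 replicate. Gene models came from GENCODE lifted to GRCh37, matched for 91.5% of symbols, and start windows from RefSeq.

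The members, lists and tests were chosen with earlier results of these data known. Members named are those called, the 3 with the lowest adjusted p in each role, the 10 with the largest absolute change among those with at least 50 normalized counts, the 3 with the most counts, paralog pairs, the 9 tract members, the 3 lowest adjusted p of each outside list, and the symbols beside the count limit. The other members are named so that each is accounted for, after their values were seen. The Y-linked EIF1AY is not reported.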

Additional observations from a re-analysis of the deposited data

How the results depend on the processing

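The count of members called at an adjusted p under 0.01 was 0 in each direction, and it moved with several settings. Lower and higher members numbered 2 and 0 with DESeq2 (no adjusted p for 6 members). They numbered 10 and 1 with length and GC trends removed, and 5 and 1 at an adjusted p under 0.05. At an unadjusted p under 0.01 they numbered 12 and 1. In the same order, 170 and 60, 645 and 365, 336 and 213, and 708 and 547 of all tested genes were lower and higher. When 1 library is left out, the lone library of a treatment is assumed to vary like the other 2. Without a vehicle library, more of all tested genes were called, and so were some members. These were EEF1B2, EEF1G, EIF3D, EIF5A and EIF5AL1 without vehicle replicate 1, EEF1D, EEF1G, EIF3D and EIF3I without vehicle replicate 2, and none without either EC359 library. Under the replicate block, 13 members were lower and 2 higher, and 847 and 692 of all genes against 101 and 38. Same-numbered libraries deviated together (correlation 0.403). The labels name no batch, so whether libraries of the same number were paired cannot be told. Regulators lower were 1 with DESeq2, 3 with the block, 3 with trends removed, 1 at 0.05, 3 unadjusted and 0 to 1 with a library left out, and regulators higher were 2, 2 and 2 with the block, trends removed and unadjusted, and 0 to 2 with a library left out. Partners lower were 2 with the block, 2 with trends removed, 1 at 0.05, 1 unadjusted and 0 to 1 with a library left out, and partners higher were 1 with the block and 1 unadjusted.

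The median log2 fold change of the members was -0.040 and became -0.016 with total counts only, which moved the median of all genes to 0.027 and gave 69 lower and 52 higher calls over all genes. It ran from -0.046 to -0.029 with a library left out. The share of counts on members differed by -0.0256 percentage points, and by -0.056 with TMM library sizes. Over all genes DESeq2 called 170 lower and 60 higher, and no filter gave 44 and 17. Reversals were few. EIF3H went to -0.0056 with trends removed, and with a library left out EEF2 ran from -0.10 to 0.034, EIF3E from -0.11 to 0.021, EIF4EBP1 from -0.14 to 0.041, EIF4G3 from -0.0091 to 0.030 and EIF5A2 from -0.12 to 0.075. The causes were not tested. RLE factors and at least 10 counts in every library changed no call of the 41 genes that the naming rule gives. Depth limits EEF1A2 and EIF4E3.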
